A study of Mus musculus with 19 samples.

Results

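The genes described here mark the blood monocytes that also populate the spleen: Ly6c2, Chil3 and F13a1 of classical monocytes, Cx3cr1, Treml4, Ace and Nr4a1 of patrolling monocytes, and Csf1r of both. They were chosen by symbol, with earlier results of these data known, and all 8 were found among the 27179 genes listed. All 8 passed the filter on low values that left 14186 genes for testing.

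Classical monocytes carry much Ly6C on their surface, leave the bone marrow through CCR2 and enter inflamed tissue. Patrolling monocytes carry little Ly6C and much CX3CR1, crawl along the inner wall of blood vessels, arise from classical monocytes and need the nuclear receptor NR4A1 to form. The spleen holds a reserve of monocytes beneath its capsule and in the red pulp.

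The values come from RNA-seq of splenocytes of 19 mice of the model of 4 core genotypes, taken 1 week after immunization with heat-killed Streptococcus pneumoniae (HKSP). The series asks how the sex chromosome complement, apart from the gonads, bears on that response. The groups held 5 XX mice with ovaries (XXF), 4 XY mice with ovaries (XYF), 5 XX mice with testes (XXM) and 5 XY mice with testes (XYM). Fathers were B6.Cg-Tg(Sry)2Ei Srydl1Rlb/ArnoJ and mothers C57BL/6J, so that Sry is deleted from the Y chromosome and sits, in the mice with testes, on an autosome as a transgene. All groups received the avirulent, nonencapsulated strain R36A by intraperitoneal injection, and red cells were lysed. No unimmunized mice were sequenced, and no age of the mice was found. A male is a mouse with testes and a female a mouse with ovaries throughout.

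Levels are given as log2(RPKM + 1), where RPKM is the number of reads divided by gene length in kilobases and by library size, or as RPKM where genes are compared with each other. The library sizes lay between 11263753 and 19962022 reads, and each of the 8 genes had between 249 (Ace) and 34057 (Chil3) reads in a mouse. Xist lay between 23.9 and 44.9 RPKM in XX mice and at most at 0.0524 in XY mice, and reads of Sry were found in every male and in no female. All 10 B cell and all 10 T cell marker genes had reads in every library. In the sample titles only the 5 XXM libraries bear an additional tag, which nothing explains, and no batch is named, so that processing and group cannot be told apart.

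On the RPKM scale, which takes gene length into account, Ly6c2 (Entrez Gene 100041546) had the highest median over the 19 mice, 139 RPKM, and lay between 74.4 and 387. Chil3 (12655) had a median of 89.5 RPKM and the largest fold span of the 8 genes, 21.9-fold from 53.1 to 1161 RPKM. Csf1r (12978) followed with 52.6 RPKM and Nr4a1 (15370) with 35.4. Nr4a1 had the smallest fold span of the 8 genes, 2.08-fold from 26.1 to 54.4 RPKM. Treml4 (224840) had a median of 26.04 RPKM, F13a1 (74145) 14.1, Cx3cr1 (13051) 10.6 and Ace (11421) 9.01. The ranges of neighbours in this order overlapped for each of the 7 pairs.

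The promoter windows of the 3 genes that were called in a comparison are printed here, since the called differences described further on are differences of these genes. Each runs from 250 bases before to 50 bases after a start site, on the gene's strand, in RefSeq GRCm38.p6. The Ly6c2 window lies at chr15:75111922-75112221 on the minus strand, the Nr4a1 window at chr15:101266596-101266895 on the plus strand and the Treml4 window at chr17:48264045-48264344 on the plus strand. Capitals mark the letters GAGGAAGT, a form of the site bound by PU.1, the factor that myeloid cells depend on.
Ly6c2: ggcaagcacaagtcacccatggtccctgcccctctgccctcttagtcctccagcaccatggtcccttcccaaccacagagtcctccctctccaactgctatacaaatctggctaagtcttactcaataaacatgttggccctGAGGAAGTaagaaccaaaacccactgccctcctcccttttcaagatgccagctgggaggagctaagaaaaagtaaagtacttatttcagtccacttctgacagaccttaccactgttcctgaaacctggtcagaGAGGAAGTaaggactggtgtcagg
Nr4a1: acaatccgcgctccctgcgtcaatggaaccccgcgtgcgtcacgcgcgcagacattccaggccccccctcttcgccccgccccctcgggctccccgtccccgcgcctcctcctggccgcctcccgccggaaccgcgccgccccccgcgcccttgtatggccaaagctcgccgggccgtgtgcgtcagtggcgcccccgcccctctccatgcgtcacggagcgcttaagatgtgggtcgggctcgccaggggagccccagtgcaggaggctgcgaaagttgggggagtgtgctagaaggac
Treml4: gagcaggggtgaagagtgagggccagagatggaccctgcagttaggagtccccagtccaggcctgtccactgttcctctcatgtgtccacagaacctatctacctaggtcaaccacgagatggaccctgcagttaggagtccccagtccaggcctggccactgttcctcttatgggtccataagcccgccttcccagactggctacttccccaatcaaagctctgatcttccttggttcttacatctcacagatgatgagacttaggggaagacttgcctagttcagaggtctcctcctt

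Searched on both strands were AAAGGTCA (NBRE, the site at which NR4A factors bind alone), GAGGAAGT (PU.1), TTGCNNAA (C/EBP) and TGACGTCA (CRE). Of all 32851 promoter windows of this length, 1.51% held NBRE, 3.20% PU.1, 10.8% C/EBP and 1.79% CRE. The 10 windows of 7 members (Ly6c2, Chil3, F13a1, Cx3cr1, Treml4, Ace and Nr4a1) held PU.1 in 3, which were both windows of Ly6c2, with 2 matches each, and 1 of the 2 windows of F13a1. The windows of Ly6c2 overlap and hold the same 2 sites, so that 1 stretch is counted 2 times. None of the 10 windows held the letters of NBRE, C/EBP or CRE. A match describes the sequence only, and the absence of these letters says nothing about the factors.

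Among the classical genes the called differences were in Ly6c2, which encodes the surface protein that gives classical monocytes their name of Ly6C high cells and was lower in XX than in XY mice. Its log2(RPKM + 1) was 7.13, 6.90, 7.18, 6.88 and 7.07 in XXF mice F1 to F5, and 7.54, 7.38, 7.49 and 8.51 in XYF mice F6 to F9. In males it was 6.90, 6.86, 6.92, 6.24 and 6.61 in XXM mice 2, 5, 6, 7 and 8, and 6.92, 7.30, 7.41, 7.27 and 8.60 in XYM mice 12, 13, 15, 16 and 9. Every XYF mouse lay above every XXF mouse, XYF F9 and XYM 9 stood far above all other mice, and XXM and XYM met only at 6.92. The order of the group means was XYF (7.73 ± 0.52, SD, n = 4), XYM (7.50 ± 0.64, n = 5), XXF (7.03 ± 0.14, n = 5) and XXM (6.71 ± 0.29, n = 5). XYF and XYM, and likewise XYM and XXF, lay closer than the larger of their SDs.

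Over both gonadal sexes Ly6c2 was called lower in XX mice, by a log2 difference of -0.75 (95% confidence interval -1.14 to -0.35; limma adjusted p = 0.0422), in all 10 of 10 XX mice when set against the XY mean of the same sex. The XY means were raised by XYF F9 (8.51) and XYM 9 (8.60), and every other XY mouse also lay below the mean of its own group. Counts of XX mice below an XY mean of Ly6c2, here and in males, therefore do not by themselves separate XX from XY mice. A gene was called when its p, adjusted over the 14186 genes, was under 0.1 and its difference over 1.5-fold. In a bulk sample such as this, fewer cells of a type and less RNA per cell cannot be told apart. The part of cells other than monocytes in the difference of Ly6c2 was not tested. The exact two-sided permutation test within gonadal sex gave p = 6.3e-05 for Ly6c2. In males the difference was -0.79 (-1.34 to -0.25; limma adjusted p = 0.0946), called, with 5 of 5 XXM mice below the XYM mean and an exact permutation p of 0.0159. In females Ly6c2 differed by -0.70 (-1.27 to -0.12; limma adjusted p = 0.200), which was not called, and the exact permutation p was 0.00794, the smallest that 5 against 4 mice can give. The effects in females and in males differed by 0.10 (limma adjusted p = 0.900), so that no difference between the sexes is shown.

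These calls leaned on XYF F9 and XYM 9, the mice with the most Ly6c2. Without both, an alternative chosen after seeing the data, Ly6c2 differed by -0.48 over both sexes (adjusted p = 0.0208), -0.52 in males (0.0497) and -0.44 in females (0.235), all under the 1.5-fold threshold in size. In males the call was also lost without any single 1 of XXF F2, F4 and F5, XYF F6 and F8, XXM 2, 5, 6, 7 and 8, and XYM 12, 13, 16 and 9, with differences of Ly6c2 between -0.94 and -0.52 (the latter without XYM 9) and adjusted p up to 0.203. It was also lost with the 2 groups alone (adjusted p = 0.130), with no filter (0.129), by limma-voom (0.103) and with median ratio rescaling (0.100003). In females Ly6c2 was called without XYM 9 (-0.70, adjusted p = 0.0717). Over both sexes it was called without any 1 mouse, with differences from -0.82 to -0.61 and adjusted p up to 0.0983.

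Ly6c1, the close relative of Ly6c2, lay between 1.27 and 8.60 RPKM. Of the 51-base stretches in Ly6c2 transcripts, 13.6% also occur in transcripts of Ly6c1, and how reads matching both were counted is not given. Between XX and XY mice Ly6c1 differed by 0.42 in females and 0.22 in males, neither called. Without XYF F9 and XYM 9 together these differences were 0.095 and 0.17. Ly6c1 was called lower in males than in females (-1.21, adjusted p = 0.000102, 10 of 10 males). Ly6c2 itself differed by -0.28 between males and females (adjusted p = 0.270).

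Chil3 encodes a secreted chitinase-like lectin that crystallizes in inflamed airways and is made by monocytes and, in marrow, by young neutrophils. Of the 51-base stretches in Chil3 transcripts, 16.4% also occur in transcripts of Chil4, a close relative, and 26.2% in those of any other gene. On the log2(RPKM + 1) scale Chil3 was 6.33, 5.76, 6.49, 6.50 and 6.38 in XXF mice F1 to F5, and 7.41, 7.37, 6.78 and 9.66 in XYF mice F6 to F9. In males Chil3 was 6.18, 6.20, 6.77, 6.69 and 6.60 in XXM mice 2, 5, 6, 7 and 8, and 6.24, 7.67, 6.10, 6.50 and 10.18 in XYM mice 12, 13, 15, 16 and 9. All 4 XYF mice lay above the 5 XXF mice, XYF F9 and XYM 9 were again the highest, and XXM and XYM overlapped. Chil3 differed between XX and XY by -1.51 in females (-2.89 to -0.14; limma adjusted p = 0.235; exact permutation p = 0.00794), by -0.85 in males (0.368; exact 0.405) and by -1.18 over both (0.142; exact 0.00844). None of the 3 was called. Chil3 was called in females without XYM 9 (-1.51, adjusted p = 0.0724) and over both sexes without XYM 15 (-1.34, 0.0765) or with array weights (-0.88, 0.0964). Without both XYF F9 and XYM 9 it differed by -0.89 in females, -0.14 in males and -0.52 over both.

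F13a1 encodes the catalytic subunit of coagulation factor XIII, which cross-links fibrin. Its log2(RPKM + 1) lay between 2.85 and 4.20 in XXF, 3.22 and 5.78 in XYF, 3.48 and 4.17 in XXM and 3.07 and 6.15 in XYM mice, and the groups overlapped. The highest values were those of XYF F9 (5.78) and XYM 9 (6.15), and next came XYM 13 with 4.67. F13a1 was called in none of the 5 comparisons. The difference between XX and XY was -0.52 in females, -0.44 in males and -0.48 over both, and 0.02, 0.01 and 0.02 without XYF F9 and XYM 9.

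**Figure D1:**
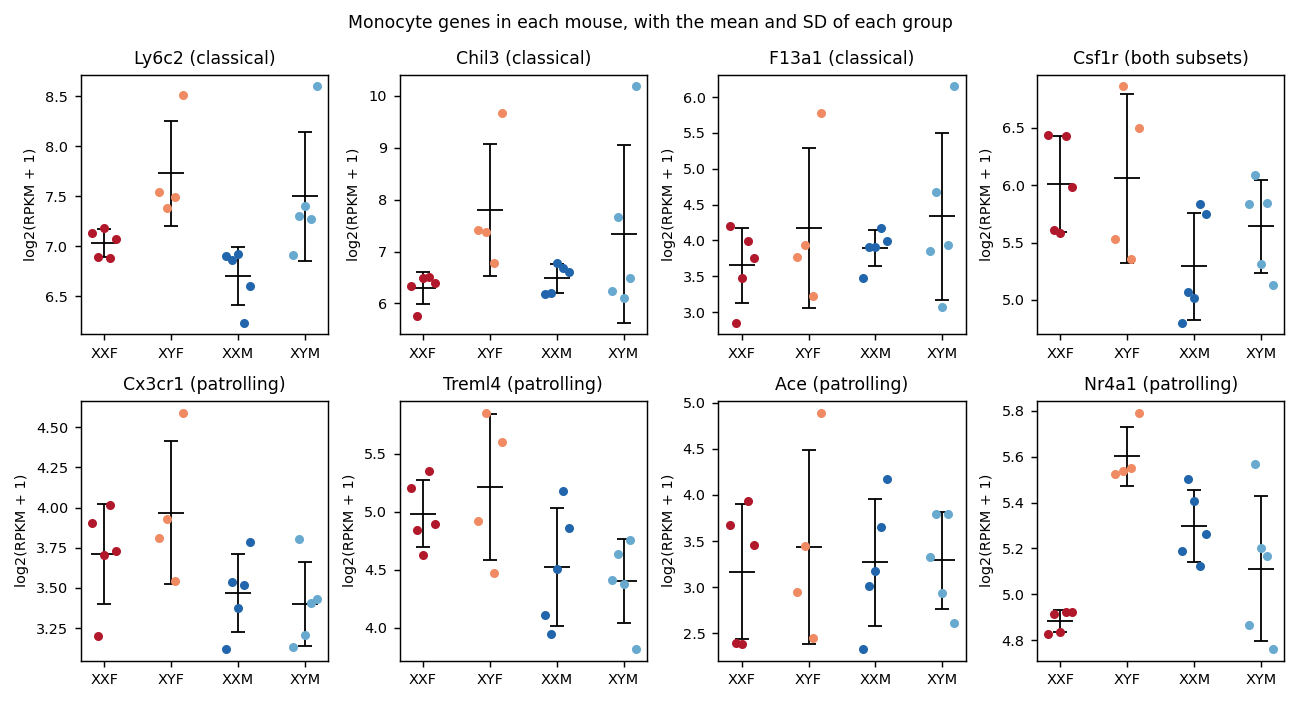
Log2(RPKM + 1) of the 8 genes, a panel each, with a point for every mouse of the groups XXF, XYF, XXM and XYM, and the mean and SD of each group. XYF F9 and XYM 9 stand apart in Ly6c2 (8.51 and 8.60), Chil3 (9.66 and 10.18) and F13a1 (5.78 and 6.15). The XXF and XYF points of Ly6c2, Chil3 and Nr4a1 do not overlap.

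The 2 mice with the most classical transcripts also had the most neutrophil transcripts. The 13 neutrophil marker genes, which include S100a8, S100a9, Ly6g and Elane, summed to 4809, 3977, 5488, 5250 and 4575 RPKM in XXF mice F1 to F5, and to 13334, 16968, 8162 and 57527 RPKM in XYF mice F6 to F9. In males the sums were 6791, 5844, 7715, 5167 and 4586 RPKM in XXM mice 2, 5, 6, 7 and 8, and 3292, 9629, 4184, 4086 and 59503 RPKM in XYM mice 12, 13, 15, 16 and 9. XYF F9 and XYM 9 thus lay far above all others, and each XYF mouse above each XXM and XXF mouse. The most abundant of these genes was S100a9, with a median of 2311 RPKM and between 1296 and 24728, and none of the 13 was at 0 in all mice.

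Of the 13 neutrophil genes, 12 lay below 0 in females with a median log2 difference between XX and XY of -1.87, beside 0.06 over all genes tested. In males the median of the list was -0.35, and 10 of 13 lay below 0. With XYF F9 and XYM 9 both left out the median was -1.30 in females, but 0.23 in males, where the sign turned. By limma 0 of 13 were called in females (8 at an unadjusted p under 0.05, 0 called by limma-voom) and 0 of 13 in males (0 at an unadjusted p under 0.05, 0 by limma-voom), beside 1.38% and 2.96% of all genes tested. Without those 2 mice 5 of 13 were called lower in XX females, S100a8 (-1.38), S100a9 (-1.39), Camp (-1.60), Elane (-1.64) and Mpo (-1.57), beside 0.550% of all genes, and 1 higher in XX males, Retnlg (0.93), beside 2.06%. The effects in females and in males were then called different for 5 of 13, beside 5.51% of all genes. Over both sexes 2 were called, Elane (-1.47) and Mpo (-1.70), beside 1.21% of all genes called lower in XX. Elane was called neither by limma-voom nor with no filter, and 11 of 19 fits without 1 mouse lost it (adjusted p up to 0.190), while Mpo was lost without XYF F9 (adjusted p = 0.122). Without XYF F9 and XYM 9 together Elane differed by -0.84 (adjusted p = 0.0994) and Mpo by -1.04 (0.0487), and both were still called. The part of neutrophil transcripts in the differences of Ly6c2, Chil3 and F13a1 was not tested.

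**Figure D2:**
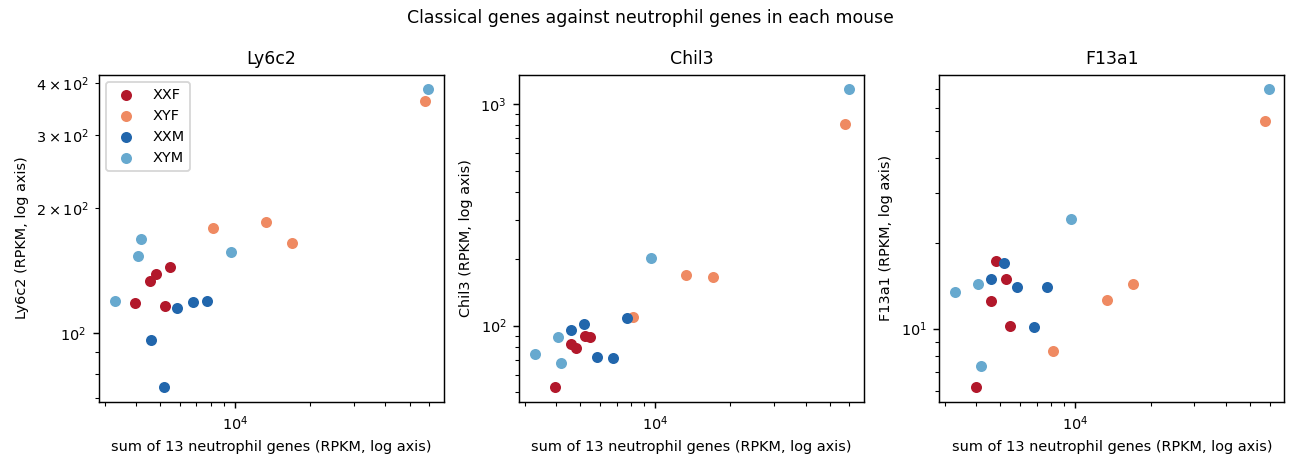
RPKM of Ly6c2, Chil3 and F13a1 in each of the 19 mice against the sum of 13 neutrophil genes in RPKM, both on log axes, with the 4 groups in colours. XYF F9 (sum 57527 RPKM) and XYM 9 (59503 RPKM) lie at the upper right of each panel, and next to them XYF F7 sums to 16968 RPKM.

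Among the patrolling genes the difference that held in every fit was in Nr4a1, the nuclear receptor on which the formation of patrolling monocytes depends and which many activated lymphocytes also switch on. Its log2(RPKM + 1) was 4.83, 4.91, 4.84, 4.92 and 4.92 in XXF mice F1 to F5, and 5.52, 5.54, 5.55 and 5.79 in XYF mice F6 to F9. In males Nr4a1 was 5.19, 5.50, 5.41, 5.13 and 5.26 in XXM mice 2, 5, 6, 7 and 8, and 4.86, 5.57, 5.20, 5.17 and 4.76 in XYM mice 12, 13, 15, 16 and 9. The females formed separate bands, all XXF mice at or below 4.92 and all XYF mice at or above 5.52, while XXM and XYM overlapped. The order of the means was XYF (5.60 ± 0.13, SD, n = 4), XXM (5.30 ± 0.16, n = 5), XYM (5.11 ± 0.32, n = 5) and XXF (4.88 ± 0.05, n = 5), and XXM, XYM and XXF lay closer to their neighbour than the larger SD.

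In females Nr4a1 was called lower in XX, by -0.72 (-0.99 to -0.45; limma adjusted p = 0.0113), with 5 of 5 XXF mice below the XYF mean and an exact permutation p of 0.00794. XYF F6, F7 and F8 also lay below the XYF mean, but above every XXF mouse. Under every alternative and without any 1 mouse this call of Nr4a1 in females was made, with differences from -0.79 to -0.65 and adjusted p from 0.00206 to 0.0599. In males Nr4a1 differed by 0.19 (-0.07 to 0.44; limma adjusted p = 0.316; exact permutation p = 0.294), not called. Over both sexes the difference was -0.27 (limma adjusted p = 0.103), and between males and females -0.04 (0.772).

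The effect of XX against XY on Nr4a1 differed between females and males by -0.90 (-1.27 to -0.53; limma adjusted p = 0.0877), and was called. This call was lost without any single 1 of XXF F1, F2, F4 and F5, XYF F6, F7 and F9, XXM 2, 5, 6 and 8, and XYM 12 and 16, with differences of Nr4a1 from -0.93 to -0.84 and adjusted p from 0.107 to 0.232. It was also lost with no filter (adjusted p = 0.123), by limma-voom (0.118), with a pseudocount of 0.1 (0.116), with quantile normalization (0.110) and without the trend (0.1001). Without XYF F9 and XYM 9 together it was -0.75 (0.0784) and called, beside 5.51% of all genes. Over all alternatives other than leaving out 1 mouse it lay between -0.96 and -0.67.

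Nr4a3, a relative of Nr4a1, had the opposite signs at a far lower level. Its RPKM was 1.59, 0.825, 0.655, 1.25 and 1.26 in XXF mice F1 to F5, and 0.283, 0.401, 0.502 and 0.195 in XYF mice F6 to F9. In males Nr4a3 was at 0.263, 0.198, 0.296, 0.698 and 0.792 RPKM in XXM mice 2, 5, 6, 7 and 8, while its median in XYM mice was 1.27 RPKM. XXF lay above XYF with no overlap, and in males the groups overlapped. Nr4a3 differed between XX and XY by 0.64 in females (limma adjusted p = 0.115, not called) and by -0.71 in males (0.0616, called), with 5 of 5 XXM mice below the XYM mean. The effects on Nr4a3 differed by 1.35 (0.0877, called), a call lost with no filter, by limma-voom (3.30, 0.118) and in 13 of 19 fits without 1 mouse (adjusted p up to 0.232). In males 6 of the 19 fits without 1 mouse lost the call of Nr4a3, those without XXM 2, 5 or 6, or XYM 12, 13 or 16 (adjusted p up to 0.173), and so did the fit of the 2 groups alone (0.108). For a gene this low the size depends on the scale, and with a pseudocount of 0.1 the difference of Nr4a3 was -1.47 in males, and -1.63 by limma-voom. Nr4a2 was called in no comparison.

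Nr4a1 is also an immediate early gene of lymphocytes. Of the 12 immediate early genes listed, among them Fos, Junb and Egr1, limma called 0 in females (2 at an unadjusted p under 0.05, 0 called by limma-voom), and their median difference was -0.07, beside 0.06 over all genes. Junb, the most abundant, lay between 106 and 282 RPKM, and none of the 12 was at 0 in all mice. Summed over the list, the medians of the groups were 518 RPKM in XXF, 540 in XYF, 513 in XXM and 415 in XYM mice. In males 1 of 12 was called lower in XX, Nr4a3. Of all genes tested 1.38% were called in females and 1.83% lower in XX males. The part of cells other than monocytes in the difference of Nr4a1 was not tested.

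Treml4, a receptor of the TREM family that binds dead cells, was called lower in males than in females. Its log2(RPKM + 1) was 5.21, 4.84, 4.62, 5.35 and 4.90 in XXF mice F1 to F5, and 4.92, 5.85, 4.47 and 5.60 in XYF mice F6 to F9. In males Treml4 was 4.11, 3.95, 4.51, 5.18 and 4.86 in XXM mice 2, 5, 6, 7 and 8, and 4.41, 4.63, 4.38, 4.76 and 3.82 in XYM mice 12, 13, 15, 16 and 9. The lowest values were those of XYM 9, XXM 5 and XXM 2, the highest those of XYF F7 and XYF F9, and males and females overlapped. Group means were 5.21 ± 0.63 (SD, n = 4) in XYF, 4.98 ± 0.29 (n = 5) in XXF, 4.52 ± 0.51 (n = 5) in XXM and 4.40 ± 0.36 (n = 5) in XYM mice, and each neighbour lay within the larger of the SDs.

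Averaged over both sex chromosome complements Treml4 differed by -0.64 (-1.05 to -0.23; limma adjusted p = 0.0217), with 9 of 10 males below the mean of the females of their complement and an exact permutation p of 0.00781. The difference of Treml4 fell under the 1.5-fold threshold without XYF F7 (-0.53), XYF F9 (-0.57), XXM 5 (-0.57) or XYM 9 (-0.56), without XYF F9 and XYM 9 together (-0.50) and with array weights (-0.46). Between XX and XY mice Treml4 differed by -0.23 in females, 0.12 in males and -0.05 over both, and was not called.

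Cx3cr1 encodes the receptor for fractalkine, through which patrolling monocytes survive and adhere. Its log2(RPKM + 1) was between 3.20 and 4.02 in XXF, 3.54 and 4.59 in XYF, 3.12 and 3.79 in XXM and 3.13 and 3.81 in XYM mice, with all groups overlapping and XYF F9 the highest at 4.59. Between males and females Cx3cr1 differed by -0.41 (-0.70 to -0.12; limma adjusted p = 0.0359; exact permutation p = 0.0122), which was under the 1.5-fold threshold and not called. Between XX and XY mice it differed by -0.26 in females, 0.07 in males and -0.09 over both. Its ligand Cx3cl1 did not pass the filter on low values.

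Ace encodes angiotensin-converting enzyme, which patrolling monocytes carry on their surface. Its log2(RPKM + 1) ran from 2.39 to 3.94 in XXF, 2.45 to 4.89 in XYF, 2.33 to 4.17 in XXM and 2.61 to 3.79 in XYM mice, and all groups overlapped. Ace was called in no comparison, and its differences were -0.27, -0.02 and -0.14 between XX and XY in females, in males and over both, and -0.02 between males and females. With 95% confidence intervals from -1.24 to 0.71 in females and from -0.94 to 0.89 in males, a change of Ace of up to those sizes cannot be told from none.

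Csf1r, the receptor of the growth factor CSF-1 on which monocytes and macrophages depend, was 6.44, 5.61, 5.58, 6.42 and 5.99 on the log2(RPKM + 1) scale in XXF mice F1 to F5, and 5.53, 6.86, 5.35 and 6.50 in XYF mice F6 to F9. In males Csf1r was 4.80, 5.07, 5.02, 5.84 and 5.74 in XXM mice 2, 5, 6, 7 and 8, and 5.84, 6.08, 5.31, 5.84 and 5.13 in XYM mice 12, 13, 15, 16 and 9. The highest values were in females F7, F9, F1 and F4 and the lowest in XXM mice 2, 6 and 5, and males and females overlapped. Csf1r differed between males and females by -0.57 (-1.02 to -0.11; limma adjusted p = 0.0560; exact permutation p = 0.0278), with 9 of 10 males below the mean of the females of their complement, but under 1.5-fold and not called. It was called with median ratio rescaling (-0.59) and without any 1 of XXF F2 or F3, XYF F6 or F8, XXM 7 or 8, or XYM 12, 13 or 16, with differences of Csf1r from -0.68 to -0.59. Without XYF F9 and XYM 9 together it was -0.43 (0.142). Of the 51-base stretches in Csf1r transcripts, 14.3% also occur in transcripts of Hmgxb3.

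Some macrophage genes were also lower in males than in females. All 11 red pulp macrophage genes lay below 0 in males, with a median of -0.52 beside 0.02 over all genes, and 4 were called lower, Vcam1 (-0.60), C1qa (-1.05), C1qb (-1.21) and C1qc (-0.94), beside 5.36% of all genes. Of the 6 marginal zone macrophage genes 2 were called lower in males, Cd5l (-0.99) and Nr1h3 (-1.05), and 2 lay above 0, Cd209b (0.16) and Marco (0.02), with a median of -0.28. Between XX and XY mice 1 of 11 red pulp genes was called higher in XX females, Cd163 (0.89), beside 0.670%, and 1 in XX males, Hmox1 (0.77), beside 1.13%. Cd163 was not called in females without XYF F9 and XYM 9 together (0.82, adjusted p = 0.196). Over both sexes 1 of 11 red pulp genes was called higher in XX, and without those 2 mice Cd163 was called there (0.69, adjusted p = 0.0537). Of the 6 marginal zone genes 1 was called higher and 1 lower in XX females, 1 higher in XX males and 1 higher over both. Of all genes tested 1.38%, 2.96% and 1.72% were called in either direction in females, in males and over both. The red pulp list summed to 1002, 1118, 1121, 1101 and 925 RPKM in XXF mice F1 to F5, and to 1120, 2092, 790 and 746 in XYF mice F6 to F9. In males it summed to 793, 503, 683, 1129 and 835 RPKM in XXM mice 2, 5, 6, 7 and 8, and to 551, 651, 739, 583 and 376 in XYM mice 12, 13, 15, 16 and 9. The highest sum was that of XYF F7, which also had the most Treml4 and Csf1r, and the lowest that of XYM 9, which had the least Treml4. Hmox1 was the most abundant gene of the list (118 to 520 RPKM), and none was at 0 in all mice. The part of macrophage transcripts in the differences of Treml4 and Csf1r was not tested.

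The 8 genes were chosen with earlier results of these data known, so that their counts beside all genes are a description only. Counted over the 8 genes, 1 was called lower in XX females (Nr4a1) beside 0.712% of the genes tested, and 1.38% in either direction. In 3 of 8 (Ly6c2, Chil3 and Nr4a1) all XXF mice lay below all XYF mice, beside 2.09% of the genes tested, and 5.65% did not overlap in either direction. In males 1 of 8 was called lower in XX (Ly6c2; 0 of 8 with median ratio rescaling) beside 1.83%, and 2.96% in either direction. Over both gonadal sexes 1 of 8 was called lower in XX (Ly6c2) beside 1.21%, and 1.72% in either direction. Between males and females 1 of 8 was called lower in males (Treml4; 2 with median ratio rescaling, with Csf1r) beside 5.36%, and 7.32% in either direction. At an adjusted p under 0.1 and any fold change, 3 of 8 passed between males and females (Treml4, Cx3cr1 and Csf1r), a share near the 38.5% of all genes and so no result about these genes. Of the differences between the effects in females and in males 1 of 8 was called (Nr4a1; 0 with quantile normalization), beside 0.0846%.

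The medians of the 3 classical genes were -0.70 in females, -0.79 in males and -0.75 over both, beside 0.06, 0.01 and 0.03 over all genes tested. When XYF F9 and XYM 9 were both left out they were -0.44, -0.14 and -0.48. The medians of the 4 patrolling genes were -0.26, 0.10 and -0.12, and -0.07, 0.03 and -0.02 without those 2 mice. Of the 196 genes called between XXF and XYF mice 51.5% were lower in XXF, and with median ratio rescaling 119 of 184 (64.7%), under which Ly6c2, Chil3 and Nr4a1 also lay below 0. The 32 exact tests of single genes, 8 in each of 4 comparisons, gave 9 with p under 0.05. The XX against XY comparisons within a sex and over both share their mice, and males and females are the same mice grouped otherwise, so that the counts are not independent of each other.

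**Figure D3:**
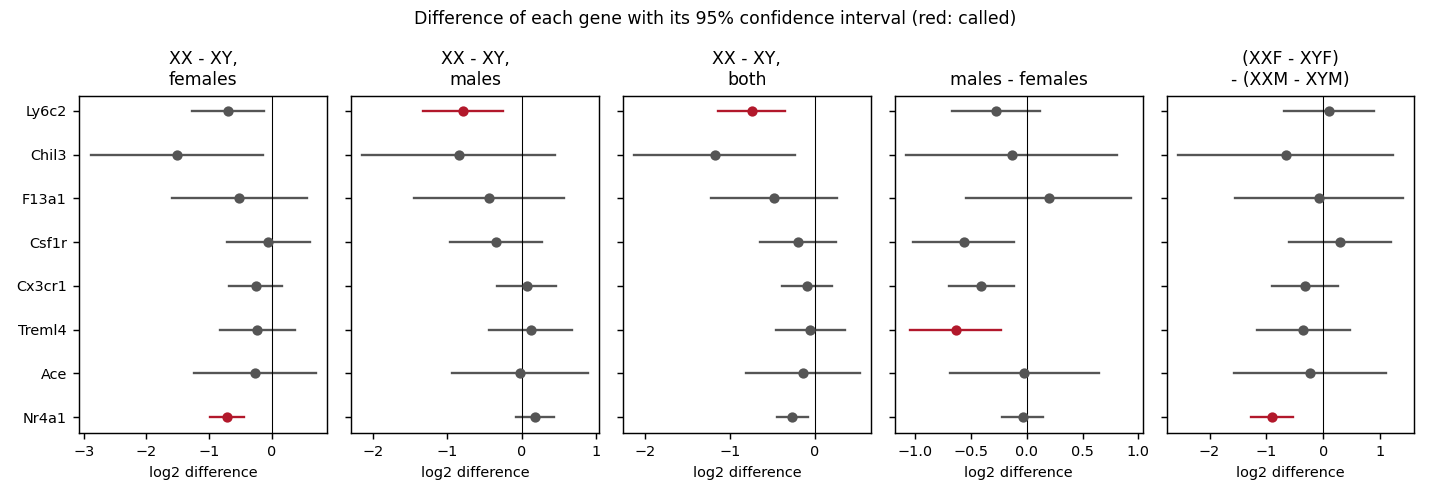
Log2 difference of each of the 8 genes with its 95% confidence interval in the 5 comparisons, a panel each, with called differences in red. Red points are Nr4a1 in females (-0.72) and in the difference of effects (-0.90), Ly6c2 in males (-0.79) and over both sexes (-0.75), and Treml4 between males and females (-0.64).

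The classical minus patrolling mean was the mean log2(RPKM + 1) of the 3 classical genes minus that of the 4 patrolling genes. It was 1.49, 1.33, 1.83, 1.23 and 1.49 in XXF mice F1 to F5, and 1.94, 1.54, 1.83 and 2.76 in XYF mice F6 to F9. In males it was 1.83, 1.66, 1.75, 1.33 and 1.21 in XXM mice 2, 5, 6, 7 and 8, and 1.74, 2.10, 1.59, 1.62 and 4.66 in XYM mice 12, 13, 15, 16 and 9. XYM 9 stood apart, with the highest classical mean of all mice (8.31) beside the lowest patrolling mean (3.65). XYF F9 combined a high classical mean (7.98) with the highest patrolling mean (5.22). Both mice also had the highest neutrophil sums, 57527 RPKM in XYF F9 and 59503 RPKM in XYM 9. The part of neutrophil transcripts in the classical mean was not tested. In the other 17 mice the classical mean lay between 5.17 and 6.55 and the patrolling mean between 3.69 and 4.69.

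**Figure D4:**
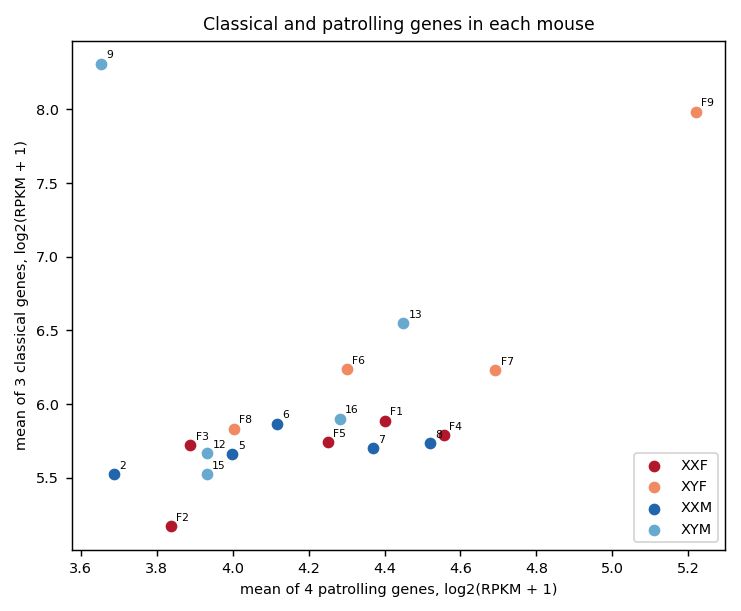
Mean log2(RPKM + 1) of the 3 classical genes against that of the 4 patrolling genes in each mouse, labelled by its number, with the 4 groups in colours. XYM 9 (3.65, 8.31) and XYF F9 (5.22, 7.98) lie far above the others.

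Across the 19 mice the 28 pairs of the 8 genes were correlated, with permutation p adjusted over the 28 pairs. The tightest pair within the patrolling and shared genes was Treml4 and Csf1r (r = 0.88, permutation p = 1e-05, the smallest that 100000 permutations can give, adjusted 0.00028; rho = 0.83, permutation p = 2e-05, adjusted 0.00056). Without the 2 mice farthest from the median of Treml4, XYF F7 and XYM 9, r of Treml4 and Csf1r was 0.84, and with group means subtracted 0.91. Cx3cr1 was correlated with Treml4 (r = 0.70, permutation p = 0.00079, adjusted 0.00439; rho = 0.75, permutation p = 0.00056, adjusted 0.00616; r = 0.59 without XXF F4 and XYF F9), but with group means subtracted the pair did not pass (r = 0.52, adjusted 0.126). Cx3cr1 and Csf1r gave r = 0.70 (permutation p = 0.0007, adjusted 0.00439; rho = 0.69, permutation p = 0.00153, adjusted 0.00857; r = 0.63 without those 2 mice and 0.65, adjusted 0.0323, with group means subtracted).

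Ace varied with the same genes, and its pairs with Cx3cr1 and Treml4 passed no longer without XYF F9 and XYM 9. With group means subtracted all 3 pairs of Ace passed, with Cx3cr1 (r = 0.84, adjusted 0.00103), Csf1r (0.83, adjusted 0.00154) and Treml4 (0.78, adjusted 0.00381). Ace and Csf1r gave r = 0.69 (permutation p = 0.00124, adjusted 0.00496; rho = 0.73, permutation p = 0.00066, adjusted 0.00616; r = 0.58 without XYF F9 and XXM 2). Treml4 and Ace gave r = 0.63 (permutation p = 0.00405, adjusted 0.0142; rho = 0.63, permutation p = 0.0046, adjusted 0.0208; r = 0.67 without XYF F7 and XYM 9), but r = 0.49 (adjusted 0.113) without XYF F9 and XYM 9. Cx3cr1 and Ace gave r = 0.70 (permutation p = 0.00094, adjusted 0.00439; rho = 0.59, permutation p = 0.008, adjusted 0.028), but r = 0.46 without XXF F4 and XYF F9 and 0.52 (adjusted 0.0981) without XYF F9 and XYM 9, so that without group means subtracted this relation rests on those mice. Of the 6 pairs of patrolling genes 3 passed, and 1 without XYF F9 and XYM 9. Nr4a1 gave lower values with Cx3cr1, Treml4 and Ace, with r between 0.21 and 0.40, and passed with none of them.

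The 3 classical pairs passed, but the pairs of Ly6c2 with Chil3 and with F13a1 rest on XYF F9 and XYM 9. Without both mice Chil3 and F13a1 had an adjusted permutation p of 0.0502. It was 0.0446 when adjusted beside the other pairs without their own 2 farthest mice. With group means subtracted only Chil3 and F13a1 passed (r = 0.94, adjusted 0.00103). Chil3 and F13a1 gave r = 0.90 (permutation p = 6e-05, adjusted 0.00084; rho = 0.63, permutation p = 0.00521, adjusted 0.0208), and r = 0.58 without both mice. Ly6c2 and Chil3 gave r = 0.84 (permutation p = 0.00033, adjusted 0.00308; rho = 0.54, permutation p = 0.0178, adjusted 0.05), and r = 0.37 without both mice. Ly6c2 and F13a1 gave r = 0.65 (permutation p = 0.00597, adjusted 0.0186; rho = 0.09, permutation p = 0.709, adjusted 0.828), and r = -0.22 without both mice. Of the 12 pairs of a classical and a patrolling gene 0 passed by r, which lay between -0.04 and 0.50. By rho 2 of them passed, F13a1 with Ace (rho = 0.70, permutation p = 0.00104, adjusted 0.00728) and Chil3 with Cx3cr1 (rho = 0.55, permutation p = 0.0158, adjusted 0.0493). With group means subtracted F13a1 and Cx3cr1 passed (r = 0.72, adjusted permutation p = 0.0230). Without both mice 2 of those 12 passed by r, Chil3 with Nr4a1 (r = 0.66) and F13a1 with Ace (r = 0.77). Chil3 with Cx3cr1 then gave r = 0.58, with the same adjusted permutation p of 0.0502 and 0.0446 as Chil3 and F13a1.

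The genes whose log2 values varied most like each member over the 19 mice were found among all genes tested. For Chil3 they were Clec5a (r = 0.99), Cd177 (0.98) and Mmp8 (0.98), and Mmp8 is on the neutrophil list. For F13a1 they were F5 (0.97), Itgam (0.96) and Sgms2 (0.96), and for Ly6c2 Prg2 (0.89), Fpr2 (0.88) and Igf1r (0.88). Without XYF F9 and XYM 9 the 3 values of Chil3 were 0.92, 0.91 and 0.88, and those of Ly6c2 0.68, 0.62 and 0.57. For Treml4 the nearest were Slc11a1, Cd68 and Jup (0.88 each), for Csf1r Mertk (0.90), Tgm2 (0.89) and Kctd12b (0.89), and Cd68 and Mertk are on the macrophage lists. For Ace they were Zfyve9 (0.90), Lrp1 (0.88) and Tnfrsf1b (0.88), for Cx3cr1 Creb3l1 (0.87), Rnf10 (0.85) and Vwf (0.85), and for Nr4a1 Eno3 (0.83), 5430437J10Rik (0.83) and Cp (0.78), and Eno3 is on the wider patrolling list and Vwf on the list of megakaryocytes and platelets.

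Beyond the 8 genes, single genes of a wider patrolling list were called between XX and XY mice. Differences lay below 0 for 13 of its 17 genes in females, 15 over both sexes and 8 in males, where 9 lay above 0. Fcgr4, an activating receptor for IgG, was at 29.2, 41.9, 42.0, 37.7 and 35.9 RPKM in XXF mice F1 to F5, and at 214, 129, 196 and 179 RPKM in XYF mice F6 to F9. In males Fcgr4 was at 17.8, 18.8, 19.1, 20.8 and 20.2 RPKM in XXM mice 2, 5, 6, 7 and 8, and at 28.5, 120, 141, 24.4 and 61.0 RPKM in XYM mice 12, 13, 15, 16 and 9. No XX mouse reached an XY mouse of its own sex. All XXF mice lay below all XYF mice in 2.09% of the genes tested, and that share was not counted in males. Over both sexes Fcgr4 was called lower in XX, by -1.90 (-2.44 to -1.35; limma adjusted p = 0.000523), with 10 of 10 XX mice below the XY mean of their sex.

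Cd300e, an activating receptor that marks patrolling cells, was at 12.8, 8.80, 4.75, 13.4 and 9.74 RPKM in XXF mice F1 to F5, and at 19.2, 28.2, 32.4 and 43.0 RPKM in XYF mice F6 to F9. In males it was at 2.03, 4.49, 4.73, 5.19 and 6.18 RPKM in XXM mice 2, 5, 6, 7 and 8, and at 12.4, 27.2, 17.8, 12.4 and 8.86 RPKM in XYM mice 12, 13, 15, 16 and 9. Here too XX and XY mice of the same sex did not overlap. Over both sexes Cd300e was called lower in XX, by -1.56 (-2.02 to -1.09; limma adjusted p = 0.00068), with 10 of 10 XX mice below the XY mean of their sex. Both genes were called over both sexes under every alternative and without any 1 mouse, and without XYF F9 and XYM 9 together Fcgr4 differed by -1.89 and Cd300e by -1.55. Fcgr4 is also made by neutrophils and macrophages, and their part in its difference was not tested.

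**Figure D5:**
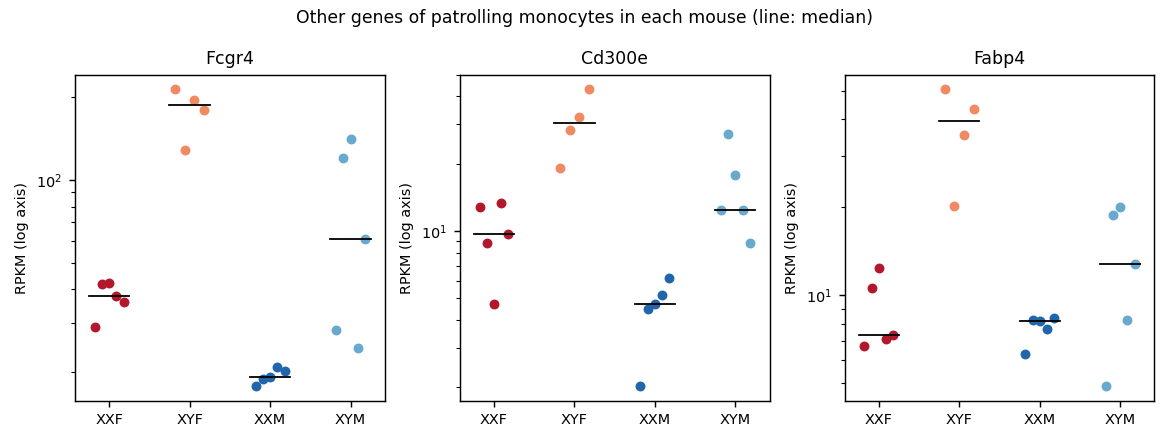
RPKM of Fcgr4, Cd300e and Fabp4 on log axes, with a point for each mouse of the 4 groups and a line at the median. The XX and XY points of a sex do not overlap for Fcgr4 and Cd300e, and for Fabp4 in females (6.71 to 12.4 RPKM in XXF, 20.1 to 50.5 in XYF).

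Of the 17 other patrolling genes listed, 4 were called lower in XX females, Fcgr4 (-2.22), Fabp4 (-1.93), Cd300e (-1.56) and Eno3 (-0.64), beside 0.712% of all genes tested, with a median of -0.39. In males 2 were called lower, Fcgr4 (-1.57) and Cd300e (-1.56), beside 1.83%, with a median of 0.06. When XYF F9 and XYM 9 were left out 3 were called lower in XX males, with Itgal (-0.60, adjusted p = 0.0927) added, beside 4.12%, and the median was -0.04. Over both sexes 3 were called lower, Fcgr4, Cd300e and Fabp4 (-1.23), beside 1.21%, with a median of -0.16. The effects in females and in males differed by -1.40 for Fabp4 (limma adjusted p = 0.135) and by -0.84 for Eno3 (0.130), neither called. By limma 0 of the 17 were called there (4 at an unadjusted p under 0.05, 0 by limma-voom), beside 0.0846% of all genes. There 3 of the 17 were called without XYF F9 and XYM 9 together, Eno3 (-0.65, adjusted p = 0.0825), Ear2 (-0.80, 0.0950) and Gngt2 (-0.85, 0.0973), beside 5.51% of all genes. In females the calls of Cd300e (adjusted p = 0.133) and Eno3 (0.149) were lost without XYF F9, and in males that of Fcgr4 was lost without XXM 2, XXM 5 or XYM 13 (adjusted p up to 0.137) and with the 2 groups alone (0.106). Eno3 in females was also lost with array weights and without XYF F9 and XYM 9 together (-0.55).

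Between males and females 6 of the 17 were called lower in males, Fcgr4 (-1.23), Cd300e (-0.96), Fabp4 (-0.84), Ear2 (-0.76), Apoc2 (-0.63) and Adgre4 (-0.62), beside 5.36% of all genes tested, with a median of -0.32. The first 4 of these were called under every alternative and without any 1 mouse. The difference of Adgre4 was under 1.5-fold without XXF F4, XYF F7, XXM 6 or XYM 9 (down to -0.55) and that of Apoc2 without XYF F7 or XYF F9 (down to -0.48). With array weights or without XYF F9 and XYM 9 together neither of these genes was called. Without those 2 mice Itgax, of the same list, was called higher in males (0.62, adjusted p = 0.00721).

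Of the 12 other classical genes listed, 11 were tested, and Vcan did not pass the filter. By limma 0 of 11 were called in females (1 at an unadjusted p under 0.05, 0 by limma-voom), 0 in males (1 and 0) and 0 over both (0 and 0), beside 1.38%, 2.96% and 1.72% of all genes tested, with medians of -0.18, 0.000534 and -0.11. With XYF F9 and XYM 9 both left out these medians were 0.11, 0.35 and 0.20, and 2 genes were called higher in XX males, Mgst1 (0.75) and Ccl9 (0.64), beside 2.06% of all genes. Hp had the largest difference in females, -1.08, which was -0.53 without those 2 mice. The receptor Ccr2, which classical monocytes need to leave the marrow, differed by -0.18 in females and by -0.03 in males. Without those 2 mice Ccr2 differed by 0.11 and 0.14. Between males and females 2 of 11 were called lower in males, Cd14 (-0.91) and Gda (-0.78), beside 5.36% of all genes tested, and Gda was lost with no filter (0.114) and in 10 of 19 fits without 1 mouse (adjusted p up to 0.150).

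Of the 11 transcription factors of monocytes listed 1 was called lower in XX females, beside 0.712% of all genes tested, and 1 in XX males, Nr4a3 (-0.71), beside 1.83%. The call in females was Klf4, which monocytes need (-0.87, adjusted p = 0.0684, 5 of 5 XXF mice). It was not called with the 2 groups alone (0.155) or with array weights (-0.63, 0.106). Without any single 1 of XXF F1, F2, F4 and F5 and XYF F6 and F9 the call of Klf4 was lost (adjusted p up to 0.281), and the effects on Klf4 in females and in males differed by -1.13 (0.131), not called, and by -1.05 (0.0607), called, without XYF F9 and XYM 9 together. Of the 11, 2 were called between males and females, beside 7.32%, Irf4 higher (0.73) and Cebpb lower (-0.66) in males, Cebpb not with array weights, without XYF F9 or XYM 12, or without XYF F9 and XYM 9 together. With those 2 mice left out Cebpb was called higher in XX males (0.80) and Irf8 higher in males than in females (0.63). Spi1, which encodes PU.1, was called in no comparison. Of the 5 receptors and growth factors tested 1 was called higher in males, Flt3 (1.03), beside 1.96%, while Csf1, the ligand of CSF1R, was called in no comparison and Il34 did not pass the filter. Of 3 chemokine and homing genes tested 1 was called higher in XX females, beside 0.670%, S1pr1, which guides cells into blood (0.77), a call lost without XXF F1, XXF F5, XYF F6 or XYF F9 (adjusted p up to 0.213), with the 2 groups alone (0.133) and without XYF F9 and XYM 9 together (0.58), and the effects on S1pr1 differed between the sexes by 0.51 (0.249).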

How the data were processed

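The authors deposited log2(RPKM + 1) plus 0.0001 for each gene and mouse, and this log2 unit was recovered from the deposited values themselves, in which a gene with 0 reads is listed at 0.0001. Whole read numbers were recovered for all 21317 genes with a read, of 27179 listed, where a value counted as whole within a tolerance of at most 0.05. The authors aligned with Subread to mm10 and counted with featureCounts, and neither their versions nor strand, multi-mapping and annotation settings were found. The paper names a KAPA stranded kit and 500 ng of RNA, the sample labels NEBNext Ultra and 1.3 ug. Reads were 2 × 51 bases.

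Genes at 0.5 RPKM or more in at least 4 mice were tested, 14186 in all. Differences were tested with limma (trend, 4 group means), two-sided, and p adjusted by Benjamini-Hochberg over all genes tested. A gene was called at an adjusted p under 0.1 and a difference over 1.5-fold. Exact permutation tests and correlations (Pearson and Spearman, 100000 permutations) were two-sided, the latter adjusted by Benjamini-Hochberg over 28 pairs. Library sizes had medians of 16703648 reads in XXF, 17579367.5 in XYF, 16156083 in XXM and 19061692 in XYM mice. The highest correlation between 2 mice was 0.990.

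The 8 genes and the gene lists were chosen with earlier results of these data known. The plan was to name the 8 genes and their close relatives, the genes called in each other list or, where none or more than 4 were called, the 2 to 4 with the largest differences, and the 3 genes nearest to each of the 8 over the mice. The text departs from that plan. It names all 6 wider patrolling genes called between males and females, leaves out some close relatives and some called genes of other cell types, and gives several of those lists by counts alone. No counts are given for the lists of conventional and plasmacytoid dendritic cells, plasma cells, megakaryocytes and platelets, and endothelial cells. Other genes were chosen after their values were seen.

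Alternatives were the compared groups alone, no filter, a filter at RPKM 1, pseudocounts of 0.5 and 0.1, median ratio rescaling, quantile normalization, no trend, array weights, an adjusted p under 0.05, no fold threshold, limma-voom on recovered reads, and each mouse left out. Leaving out XYF F9 and XYM 9 together was chosen after seeing the data. Tools were R 4.3.3 with limma 3.58.1, and Python 3.11.15 with matplotlib 3.10.9 for the figures, scipy 1.17.1, pandas 2.3.3 and numpy 2.4.6.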

Additional observations from a re-analysis of the deposited data

Results flagged for a closer look

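A value was marked as unusual when the gap between the highest or lowest mouse of a group and the nearest other, divided by the range of the group, was above the 95% critical value of Dixon. Of 56 groups of values looked at, 5 held such a mouse, and chance flags about 1 in 20 groups. They were Ly6c2 in XYF F9 (8.51), Ly6c2 in XYM 9 (8.60), Chil3 in XXF F2 (5.76) and Nr4a1 in XYF F9 (5.79), all in log2(RPKM + 1), and the classical minus patrolling mean in XYM 9 (4.66).

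Marked as well were the genes on the lists whose effect of XX against XY was called different between females and males. They were Nr4a1 (-0.90, adjusted p = 0.0877), Nr4a3 (1.35, 0.0877) and Cd28 (1.35, 0.0546).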

How the results depend on the processing

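The groups hold 4 or 5 mice, so that a difference such as that of Ace, whose interval spans 0 widely, cannot be told from none. Splenocytes are a mixture, and how many monocytes each sample held was not measured. No unimmunized mice were sequenced, so that a response to HKSP was not tested. Libraries of a group stand together in the numbering of the titles, and the order of processing is unknown. XYF F9 and XYM 9 stand apart in the classical genes, and the cause was not tested.

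Values that changed sign or a call are given by setting, and the cause was not tested. With the 2 groups alone 88 genes were called in females and 121 in males, and 0 of the 8 in males. At an adjusted p under 0.05 the numbers were 103, 85 and 0 (difference of effects), with 0 of the 8 in males and in the difference of effects. With no filter 211 genes were called in males and 6 in the difference of effects, and 0 of the 8 in either.

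By limma-voom 391 genes were called over both sexes, 1714 between males and females and 4 in the difference of effects, and 0 of the 8 in males and in the last. Median ratio rescaling called 0 of the 8 in males and 2 between males and females. With no fold threshold 345, 1115, 983 and 5468 genes passed in females, in males, over both and between males and females, and 3 of the 8 in the last. No trend called 0 of the 8 in the difference of effects. A pseudocount of 0.1 called 413 genes over both, 1700 between males and females and 6 in the difference of effects, with 0 of the 8. Quantile normalization gave 0.0283 for Ace in males and 0 of the 8 in the difference of effects.

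With array weights Ace was 0.28 and Csf1r 0.17 in females, Cx3cr1 -0.0343 in males, Treml4 0.00505 and Ace 0.0538 over both, Chil3 0.000974, Ace 0.25 and Nr4a1 0.0704 between males and females, and F13a1 0.29 and Ace 0.46 in the difference of effects. Called were 1027 genes in males and 1910 in the difference of effects, and of the 8 genes 2 over both and 0 between males and females.

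Without XYF F9 and XYM 9 together F13a1 was 0.0166, Ace 0.22 and Csf1r 0.0943 in females, F13a1 0.0136 and Treml4 -0.0238 in males, F13a1 0.0151, Cx3cr1 0.0155 and Ace 0.0133 over both, Ace 0.31 and Nr4a1 0.0380 between males and females, and F13a1 0.00300 and Ace 0.42 in the difference of effects. Called were 127 genes in females, 876 in males and 782 in the difference of effects, and 0 of the 8 in males, over both and between males and females.

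Correlations without those 2 mice were -0.22 (Ly6c2 and F13a1), -0.29 (Ly6c2 and Ace), -0.13 (Treml4 and Nr4a1), -0.0195 (Ace and Nr4a1) and -0.21 (Nr4a1 and Csf1r). Without the 2 farthest mice they were -0.22 (Ly6c2 and F13a1), -0.29 (Ly6c2 and Ace), -0.0629 (Treml4 and Nr4a1) and -0.21 (Nr4a1 and Csf1r). With group means subtracted they were -0.0163 (Ly6c2 and Ace), -0.0444 (Ly6c2 and Nr4a1), -0.29 (Ly6c2 and Csf1r), -0.00124 (Chil3 and Treml4), -0.10 (Chil3 and Nr4a1) and -0.0520 (F13a1 and Nr4a1).

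Leaving out each mouse, genes called ran from 56 to 850 in females, 51 to 1213 in males, 148 to 518 over both and 0 to 1694 in the difference of effects. Of the 8 genes 1 to 3 were called in females, 0 to 1 in males, 1 to 2 over both, 0 to 2 between males and females and 0 to 1 in the difference of effects. In females Csf1r ran from -0.29 to 0.21, F13a1 from -0.84 to 0.0166 and Ace from -0.59 to 0.22. In males Ace ran from -0.25 to 0.21, Treml4 from -0.0421 to 0.27, Cx3cr1 from -0.00784 to 0.17 and F13a1 from -0.76 to 0.0136. Over both Treml4 ran from -0.18 to 0.0533, Cx3cr1 from -0.16 to 0.0110 and Ace from -0.31 to 0.10. Between males and females Ace ran from -0.19 to 0.22, Chil3 from -0.49 to 0.17, F13a1 from -0.0288 to 0.47 and Nr4a1 from -0.0943 to 0.00618. In the difference of effects F13a1 ran from -0.53 to 0.46, Ly6c2 from -0.18 to 0.35 and Ace from -0.57 to 0.24.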

Other observations

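Of 10 NK cell genes 8 were called higher in XX females and 5 higher in XX males, with median log2 differences of 1.33 and 0.83, beside 0.670% and 1.13% of all genes tested. Between males and females 9 of 10 T cell genes were called lower in males (median -1.25) and 10 of 10 erythroid genes lower (median -1.52), beside 5.36% of all genes tested. Of 10 B cell genes 8 were called higher in males (median 0.66), beside 1.96%.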
